A study of Homo sapiens with 6 samples.

Results

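Control BE(2)-M17 cells were described at baseline, across every gene that averaged 1 FPKM or more over the 3 control libraries. FPKM is the number of sequenced fragments scaled by transcript length and by library size, so levels can be ranked between genes. Of the 26372 genes measured, 12042 (45.7%) met this rule, among them 10893 of 18546 protein-coding genes (58.7%). BE(2)-M17 is an established human neuroblastoma line, a subclone of SK-N-BE(2), in which the MYCN oncogene is amplified. The series, on the miR-137 and GOMAFU pathway in neuronal differentiation, held 6 samples, and the 3 with the genotype "control", numbered 2, 3 and 4, are used here. Those with GOMAFU knockdown were not used. Per the labels' protocols the line grew in DMEM/F12 with serum, 100 pmol of small RNA was delivered with Lipofectamine, and polyadenylated RNA was read from both ends over 150 bases. Which small RNA, if any, the controls carried is not given in the sources used here. The labels name 1 line and do not tie the 3 numbers to separate cultures, so the spread between libraries may be technical.

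Neuroblastoma arises from the sympathoadrenal branch of the neural crest, the source of sympathetic neurons and of the chromaffin cells of the adrenal medulla. Cells of the adrenergic state of this tumour keep the transcription factor circuit of that branch, including PHOX2A, HAND2 and GATA3, and can make noradrenaline and store it with granins in dense-core vesicles. The other, mesenchymal state resembles migrating crest cells and expresses factors such as PRRX1, SNAI2 and YAP1.

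The 3 defining genes of the label were among the most abundant transcripts outside the translation machinery. MYCN, a transcription factor, was at 2169, 2139 and 1998 FPKM in control replicates 2, 3 and 4 (chr2:15940564-15947007, plus strand, GRCh38), and ranked 51st of all genes. CHGA, which encodes the granule protein chromogranin A, was at 1689, 1652 and 1781 FPKM in the same order. STMN2, a regulator of microtubules in growing neurites, was at 949, 899.8 and 1039 FPKM. None of these genes differed between the libraries by more than 0.21 on the log2(FPKM + 1) scale.

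Control replicate 4 stood apart from the other pair over many genes. The median absolute difference between libraries was 0.08 between replicates 2 and 3, 0.17 between 2 and 4, and 0.14 between 3 and 4, in log2(FPKM + 1) over the 12042 genes. Replicate 4 lay farthest from the middle value for 6701 genes (55.6%), against 3160 for replicate 2 and 2181 for replicate 3. The summed FPKM was 637153, 611348 and 615164 in replicates 2, 3 and 4, and 11976 to 12052 genes reached 1 FPKM in a library. The steps between low values put the depth of replicates 2 and 4 at 1.10 and 0.972 times that of replicate 3. Values of the main genes are given per library, in the order of replicates 2, 3 and 4, and those of other genes as means. Values after ± are SDs over the 3 libraries.

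A zero in this table is not proof of a silent gene. EIF3C, a subunit of the translation initiation machinery that every cell uses, was listed at 0.00700, 0.0659 and 0.00761 FPKM and its near-identical copy EIF3CL at 0.0131, 0 and 0.0150 FPKM. RPL21, a ribosomal protein gene with many processed copies, was at 4.09, 4.55 and 3.86 FPKM, although the median of the 77 ribosomal protein genes was 2354 FPKM. Genes are therefore called listed at 0, or under 0.1 FPKM in every control, and not absent. RNA was taken from whole cultures, so fewer cells with a transcript and less of it per cell cannot be told apart.

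The members ranged from the threshold up to 13896 FPKM for RPS27. Their median was 11.9 FPKM, with 6668 genes at 10 FPKM or more, 807 at 100 or more and 92 at 1000 or more. At the lower end, 1100 genes lay between 1 and 2 FPKM, and 381 members were under 1 FPKM in at least 1 control. The gene just inside the threshold, TRIM17, had a mean of 1.0038 FPKM, and the one just outside, RIN3, had 0.99978 FPKM. Long non-coding RNA genes supplied 343 members and pseudogenes 165, while 624 members had no match in the annotation. At the other extreme, 10608 of the 26372 genes (40.2%) were under 0.1 FPKM in every control. Of these, 8661 were listed at 0 throughout and 2312 were small nucleolar RNA, microRNA or similar genes, which polyadenylated libraries capture poorly.

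The control transcriptome was led by the translation machinery. The 100 most abundant genes held 40.6, 39.7 and 42.3% of the summed FPKM in replicates 2, 3 and 4, a mean of 40.9 ± 1.32%, and 199 genes held 50%. Ribosomal protein genes were 10 of the top 10, 23 of the top 25 and 64 of the top 100. All 77 listed cytosolic ribosomal protein genes were members, with 32.1 ± 1.37% of the summed FPKM. RPS27, a small-subunit protein, was the most abundant transcript at 13490.0, 13247 and 14952 FPKM, followed by RPL37A at 7465, RPS18 at 6107, RPS2 at 5827 and RPL41 at 5266 FPKM on average. RPLP1 (5112), RPL38 (4423) and RPL23 (4264 FPKM) were also among the top 10. Many ribosomal protein genes have near-identical copies, so the split of fragments among copies is uncertain. EEF1A1, which brings aminoacyl-tRNA to the ribosome and also has many copies, was at 4110.0 ± 253 FPKM, and GAPDH, a glycolytic enzyme, was at 3332 ± 123 FPKM. These were the only genes of the top 25 outside the ribosome.

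Below them came abundant growth genes, chosen here after their values were seen. PTMA, a small acidic nuclear protein, was at 2573 ± 13.6 FPKM, NPM1, a nucleolar chaperone, at 2490.4 ± 117 FPKM, and YBX1, an mRNA-binding protein, at 2089 ± 127 FPKM. MIF, a cytokine, was at 1784 ± 129 FPKM and TMSB10, an actin-binding peptide, at 1811 ± 143 FPKM. MYCN stood between these housekeeping transcripts, close to YBX1. RGS5, a regulator of G protein signalling, was at 939 ± 30.5 FPKM, UCHL1, a neuronal deubiquitinase, at 868 ± 82.3 FPKM, and CRABP2, a carrier of retinoic acid, at 721 ± 134 FPKM.

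**Figure D1:**
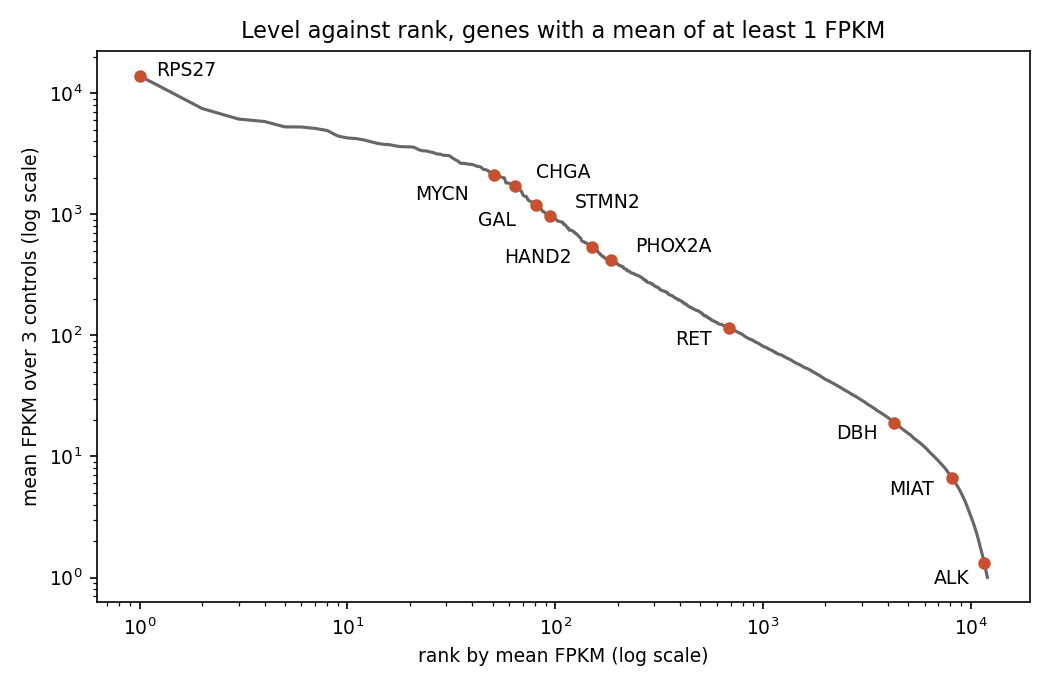
Mean FPKM over the 3 controls (vertical axis, log scale) against rank (horizontal axis, log scale) for the 12042 genes that averaged 1 FPKM or more, with named genes as points. MYCN at 2102 FPKM and CHGA at 1707 FPKM lie within the first 100 ranks, while ALK at 1.32 FPKM lies near the threshold.

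Transcription factors of the adrenergic circuit were nearly all present, while most of the listed mesenchymal and neural crest factors averaged under 1 FPKM. Of 25 adrenergic core factors, 22 (88%) averaged 1 FPKM or more, with a median of 37.2 FPKM over those members. Of 25 mesenchymal and neural crest factors, 8 (32%) did. For comparison, 58.7% of protein-coding genes did.

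HAND2, a basic helix-loop-helix factor of sympathetic neurons, was the highest at 527, 529.5 and 566 FPKM in replicates 2, 3 and 4. PHOX2A, a homeobox factor that acts on noradrenergic genes, was at 404, 388 and 460.2 FPKM. INSM2, a zinc finger factor, was at 220.2, 214 and 277 FPKM. The zinc finger factors GATA2 and GATA3 were at 237, 235 and 234 FPKM and 161, 150.3 and 198 FPKM. All except GATA2 were highest in replicate 4, and GATA2 was nearly level across the libraries. TFAP2B, a crest factor, was at 112, 117 and 102 FPKM, and MEIS2, a homeobox cofactor, at 87.2, 89.5 and 112 FPKM. ISL1, a LIM homeobox factor, was at 38.9, 37.1 and 52.2 FPKM. HAND1, a relative of HAND2, was at 42.3, 39.8 and 35.01 FPKM, so it was well below HAND2 in every library. 

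The remaining factors of the circuit formed a graded series. SOX4 and SOX11, related high-mobility-group factors of immature neurons, were at 46.4 ± 8.93 and 22.6 ± 2.39 FPKM. EYA1, a cofactor of homeobox factors, was at 35.3 ± 2.89 FPKM and SIX3, a homeobox factor, at 10.4 ± 3.27 FPKM. SATB1, a chromatin organiser, was at 20.9 ± 6.74 FPKM, with the zinc finger factors KLF7 and KLF13 at 23.6 ± 1.11 and 17.1 ± 2.67 FPKM. TBX2, a T-box repressor, was at 8.22 ± 1.00 FPKM, and LMO1, a LIM-only cofactor and neuroblastoma susceptibility gene, at 7.67 ± 2.42 FPKM. HEY1, a Notch target, was at 5.74 ± 1.73 FPKM, ZNF536 at 5.00 ± 0.773 FPKM and DACH1 at 2.63 ± 1.58 FPKM. DACH1, a transcriptional repressor, was at 1.70, 1.74 and 4.45 FPKM in replicates 2, 3 and 4, so its mean rested on replicate 4 and was 1.72 FPKM without it.

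INSM1 and LMO3 were near 0 while a relative of each was a member. INSM1, the paralog of INSM2, was listed at 0.0219, 0.0719 and 0.173 FPKM. LMO3, a relative of LMO1, was listed at 0 in every control. The highest single value of these genes was the 0.173 FPKM of INSM1 in replicate 4. As with EIF3C, such values do not show that a transcript was absent.

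Among mesenchymal and crest factors, TWIST1, which directs crest migration, was high at 154, 162 and 175 FPKM. SNAI1, a repressor of epithelial genes, was at 17.7, 16.8 and 20.8 FPKM and its relative SNAI2 at 3.82, 4.13 and 3.46 FPKM. ETS2 was at 14.2 ± 1.98 FPKM and NOTCH2, a Notch receptor that the list also holds, at 7.22 ± 1.14 FPKM. By contrast 11 of the 25 were under 0.1 FPKM in every control, namely PRRX1, RUNX1, RUNX2, PAX3, FOXD3, SOX9, TFAP2A, TWIST2, MEOX1, MEOX2 and YAP1. Factors of other lineages were mostly low as well. Of 44 factors of other neural lineages 4 reached 1 FPKM (9.09%, against 58.7% of all protein-coding genes) and 30 were under 0.1 FPKM in every control. Of 45 factors of non-neural lineages 5 reached 1 FPKM and 31 were under 0.1 FPKM. The exceptions included FEV, a serotonergic factor, at 72.4, 69.4 and 57.3 FPKM. GATA4, a factor of heart and gut, was at 25.9, 24.9 and 20.05 FPKM and PAX5, a B cell factor, at 10.9, 11.3 and 12.4 FPKM. EBF1 was at 4.08 ± 0.683 FPKM and DLX6 at 4.93 ± 0.573 FPKM.

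MYCN was the dominant member of its family. MYC, its relative, was listed at 0.107, 0 and 0 FPKM and MYCL at 0.737, 0.959 and 0.618 FPKM. 12 of the 14 listed family members and partners (85.7%) were members, against 58.7% of all protein-coding genes. MAX, the obligate partner of MYC proteins, was at 46.1, 41.3 and 38.6 FPKM, so MYCN transcripts exceeded those of MAX in every library. The MAX-binding antagonists MXD3, MXI1, MXD4 and MXD1 were at 52.7, 34.5, 28.5 and 3.10 FPKM on average, and MNT and MGA, which also bind MAX, at 8.35 and 8.99 FPKM. MLX and MLXIP, of the parallel nutrient-sensing branch, were at 29.6 and 20.8 FPKM, and TFAP4, a target of MYC proteins, at 16.1 FPKM. MYCNOS, antisense to MYCN, was at 69.1, 71.8 and 72.2 FPKM. It lies at chr2:15921037-15942249 on the minus strand and overlaps the start of MYCN. The sources do not say whether strand was used, so fragments of the overlapping part cannot be told apart. DDX1, an RNA helicase gene near MYCN that is often co-amplified with it, was at 76.8, 78.9 and 79.3 FPKM, and NBAS, farther from MYCN on the same arm, at 7.07, 7.94 and 11.04 FPKM.

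Transcripts for the making, packing and uptake of noradrenaline were present, while that of the entry enzyme was near 0. 14 of 19 listed genes (73.7%) were members, against 58.7% of all protein-coding genes. DDC, which converts L-DOPA to dopamine, was at 201, 203 and 150.2 FPKM and was lowest in replicate 4. DBH, which converts dopamine to noradrenaline, was at 20.2, 19.8 and 17.1 FPKM. TH, the rate-limiting enzyme that makes L-DOPA, was listed at 0.0719, 0.0789 and 0.0406 FPKM, under 0.1 in each library. PNMT, which makes adrenaline, was at 0.968, 0.748 and 0.809 FPKM. SLC6A2, the noradrenaline transporter, was at 114, 121 and 88.00 FPKM, while the dopamine and serotonin transporters SLC6A3 and SLC6A4 were under 0.1 FPKM in every control. SLC18A2 and SLC18A1, the vesicular monoamine transporters, were at 14.3, 17.03 and 10.6 FPKM and 7.37, 7.46 and 4.19 FPKM.

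The tetrahydrobiopterin pathway, which supplies the cofactor of TH, was present although TH was near 0. GCH1, its first enzyme, was at 48.3, 51.2 and 59.8 FPKM. PTS and SPR, the next steps, were at 42.3 ± 3.34 and 10.8 ± 2.40 FPKM, and QDPR and PCBD1, which regenerate the cofactor, at 91.5 ± 3.60 and 90.5 ± 4.34 FPKM. CYB561, which carries electrons into granules for DBH, was at 28.7, 25.9 and 15.6 FPKM. Of the breakdown enzymes, MAOA was at 1.79, 2.24 and 3.43 FPKM, while MAOB was under 0.1 FPKM in every control. MAOA was highest in replicate 4, whereas DDC, SLC6A2, SLC18A2, SLC18A1 and CYB561 were lowest there.

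**Figure D2:**
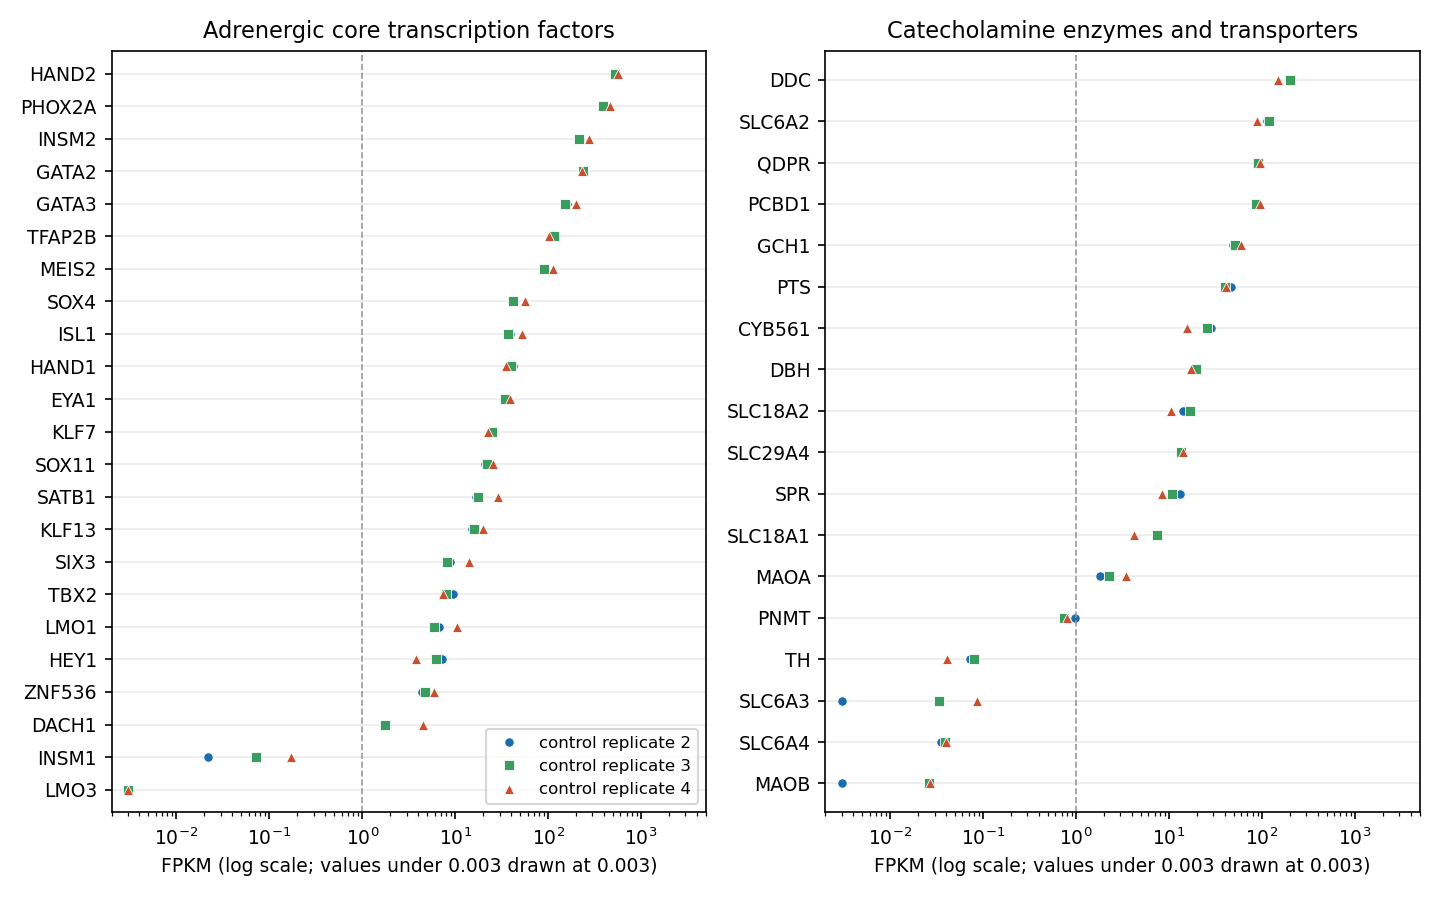
FPKM (log scale) in control replicates 2, 3 and 4 for most of the adrenergic core factors and catecholamine genes, 1 symbol per library, with the 1 FPKM threshold dashed and values under 0.003 drawn at 0.003. INSM1, LMO3 and TH sit under the threshold in every library, far below HAND2 and DDC.

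Dense-core granule proteins were abundant, while only some of the peptides they are stored with were. 14 of the 32 listed genes (43.8%) were members, against 58.7% of all protein-coding genes, and 9 were under 0.1 FPKM in every control. The median was 114 FPKM over the 14 members and 0.513 FPKM over all 32 genes. Promoters that hold the full cAMP response element, TGACGTCA, are shown because the genes behind them ranged from very abundant to near 0. The letters run 5′ to 3′ on the gene's strand over the 150 bases before the first start site in RefSeq (GRCh38.p14), and capitals mark the element.
CHGA: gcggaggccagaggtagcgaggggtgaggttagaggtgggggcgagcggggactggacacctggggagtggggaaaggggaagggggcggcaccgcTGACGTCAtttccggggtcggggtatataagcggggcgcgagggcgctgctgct
VGF: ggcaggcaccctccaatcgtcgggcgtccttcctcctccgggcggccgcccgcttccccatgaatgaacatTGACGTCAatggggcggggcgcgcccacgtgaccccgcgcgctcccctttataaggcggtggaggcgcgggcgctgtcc
PCSK1: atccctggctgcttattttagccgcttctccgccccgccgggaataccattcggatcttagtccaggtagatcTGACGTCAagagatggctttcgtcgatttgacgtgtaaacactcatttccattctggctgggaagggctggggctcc
CARTPT: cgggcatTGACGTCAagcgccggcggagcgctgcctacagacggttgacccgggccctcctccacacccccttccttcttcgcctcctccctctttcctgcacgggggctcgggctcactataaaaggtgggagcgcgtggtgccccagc
SST: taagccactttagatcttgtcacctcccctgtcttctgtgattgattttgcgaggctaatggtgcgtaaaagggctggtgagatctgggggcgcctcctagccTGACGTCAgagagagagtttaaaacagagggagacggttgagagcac

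These windows lie at chr14:92923000-92923149 (CHGA, plus strand), chr7:101165570-101165719 (VGF, minus strand), chr5:96433249-96433398 (PCSK1, minus strand), chr5:71719125-71719274 (CARTPT, plus strand) and chr3:187670395-187670544 (SST, minus strand). The element is bound by CREB-family factors when cAMP rises, and it reads the same on both strands. It begins 54, 79, 77, 143 and 47 bases before the start in the order printed. In the 250 bases before the start it was found in 5 of the 26 listed genes that matched a promoter (19.2%), and in 1.77% of all 27305 promoters of the table. Of the 5 genes, CHGA and VGF were members. PCSK1, a prohormone convertase, was at 0.495, 0.566 and 0.682 FPKM, CARTPT at 0.249 FPKM and SST, which encodes somatostatin, at 0.0541 FPKM on average. A match of letters describes these windows only.

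CHGA was nearly level across the libraries, and VGF, a granule protein induced by neurotrophins, was at 178, 188 and 76.1 FPKM, lowest in replicate 4. The other granins SCG2, CHGB and SCG3 were at 399, 396 and 321 FPKM, 206, 208 and 174 FPKM and 120.2, 121 and 128 FPKM. GAL, which encodes the peptide galanin, was the most abundant neuropeptide at 1249, 1343 and 1006 FPKM. NPY, a cotransmitter of sympathetic neurons, was at 126, 129.8 and 61.2 FPKM, with replicate 4 lowest and the other pair close together. NMU was at 69.96 ± 8.19 FPKM and VIP, a peptide that relaxes smooth muscle, at 45.5 ± 12.4 FPKM. PCSK1N, an inhibitor of PCSK1, was at 123 ± 28.7 FPKM, above its target in every library. ADCYAP1, CALCA, CCK, GRP, PCSK2, PDYN, PENK, POMC and TAC1 were under 0.1 FPKM in every control.

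Structural genes of neurons and of the release machinery were widely present. Of 36 cytoskeleton and growth cone genes 34 (94.4%) were members, and of 30 synaptic release genes 26 (86.7%) were. The share over all protein-coding genes was 58.7%. TUBA1A, an alpha-tubulin with near-identical relatives, was at 1289, 1202 and 1074 FPKM and STMN1, a relative of STMN2, at 587, 565 and 548 FPKM. TUBB3, the neuronal beta-tubulin, was at 233 ± 13.03 FPKM, and the intermediate filament genes PRPH, NEFM and NEFL were at 188 ± 1.49, 184 ± 35.9 and 111 ± 7.36 FPKM. GAP43, a growth cone protein, was at 50.5 ± 2.41 FPKM and DCX, a microtubule protein of migrating neurons, at 16.6 ± 5.05 FPKM. SNAP25, a SNARE protein of vesicle fusion, was at 97.6, 95.1 and 123 FPKM, and the vesicle protein SYP at 99.1, 96.2 and 94.7 FPKM. SYP was almost level, while SNAP25 was highest in replicate 4. CPLX2, a complexin, was at 66.3 ± 1.68 FPKM. RTN1, SV2B and SYN3 were under 0.1 FPKM in every control.

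Receptor tyrosine kinases were led by RET. 27 of 58 (46.6%) were members, a share below that of all protein-coding genes, and 18 were under 0.1 FPKM in every control. RET, the receptor for GDNF-family ligands, was at 132, 135 and 75.9 FPKM. Replicate 4 was the low library, and the mean was 114 ± 33.2 FPKM. PTK7 and ROR2, receptors of the Wnt pathway, were at 61.8, 62.8 and 66.7 FPKM and 22.8, 23.3 and 21.5 FPKM, and RYK, another Wnt receptor, at 29.8, 29.8 and 30.8 FPKM. IGF1R, PDGFRB and DDR2 were at 21.2 ± 1.45, 18.9 ± 2.82 and 18.4 ± 7.79 FPKM. NTRK2, the BDNF receptor, was at 0.565, 0.578 and 0.963 FPKM. NTRK3 was listed at 0, 0 and 0.0236 FPKM. ALK, mutated in a share of neuroblastomas, was at 0.704, 0.709 and 2.55 FPKM. It was a member through replicate 4 alone, with a mean of 1.32 FPKM over 3 libraries and 0.706 FPKM without that library. KIT, the stem cell factor receptor, had the same shape at 0.723, 0.692 and 2.56 FPKM, with a mean of 1.33 FPKM and 0.707 FPKM without replicate 4, and was named after its values were seen. MET, FLT3, CSF1R, ERBB3, KDR, EPHA3 and EPHA4 were among those under 0.1 FPKM.

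Of the coreceptors and ligands that go with RET and the neurotrophin receptors, 10 of 20 measured (50%) were members. The share over all protein-coding genes was 58.7%. MDK, a heparin-binding growth factor, was at 274, 259 and 321 FPKM, and NCAM1, an adhesion molecule that also binds GDNF, at 33.4, 36.3 and 48.03 FPKM. SORT1, a sorting receptor, was at 11.6 ± 0.721 FPKM. GFRA3, the RET coreceptor for artemin, was at 7.41, 7.95 and 16.99 FPKM and ARTN, the gene for artemin, at 1.03, 1.32 and 1.20 FPKM. GFRA2, the coreceptor for neurturin, was at 2.20, 2.39 and 0.522 FPKM. GFRA3 was higher and GFRA2 lower in replicate 4 than in both other libraries.

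Transmitter receptors were few, and those present included the ganglionic nicotinic subunits. Of 21 acetylcholine receptor genes 7 (33.3%) were members, against 58.7% of all protein-coding genes. CHRNA3, the alpha subunit of sympathetic ganglia, was at 63.6, 65.7 and 50.5 FPKM, CHRNB2 at 32.2, 33.7 and 31.2 FPKM, CHRNA5 at 12.9, 12.9 and 10.6 FPKM and CHRNB4 at 9.75, 10.96 and 11.5 FPKM. The ends of CHRNA5 and CHRNA3 overlap on opposite strands, so some fragments could belong to either gene. CHRM3, a muscarinic receptor, was at 7.93, 9.91 and 10.6 FPKM. Of 32 receptors for amines 6 (18.75%) were members and 22 were under 0.1 FPKM. ADRA2C, the alpha-2C adrenergic receptor, was at 38.7, 38.9 and 26.7 FPKM, the histamine receptor HRH3 at 11.3, 12.8 and 9.45 FPKM, the serotonin receptor HTR1E at 10.4, 8.43 and 4.85 FPKM and the dopamine receptor DRD2 at 5.50, 5.83 and 4.10 FPKM. These 4 receptors were lowest in replicate 4. The adrenergic receptors ADRB1 and ADRB3 were under 0.1 FPKM in every control.

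Of 50 receptors for glutamate, GABA and glycine 10 (20%) were members, against 58.7% of all protein-coding genes. The AMPA receptor subunits GRIA4 and GRIA2 were at 16.5, 18.2 and 23.7 FPKM and 4.47, 4.78 and 10.9 FPKM, and the kainate subunit GRIK2 at 11.9, 12.7 and 14.4 FPKM. All 3 were highest in replicate 4. GRIA1, GRIN2A and GRIN2B were under 0.1 FPKM in every control. Of 49 peptide receptor genes 10 (20.4%) were members. RAMP1, an accessory protein of the CGRP receptor, was at 198, 179.8 and 190.5 FPKM, while its partner receptor CALCRL was under 0.1 FPKM in every control. RAMP2 was at 19.01 ± 1.10 FPKM. NPY2R, a receptor for neuropeptide Y, was at 34.5, 34.8 and 31.5 FPKM, whereas NPY1R and NPY5R were under 0.1 FPKM. OPRD1, the delta opioid receptor, was at 5.10, 7.95 and 8.89 FPKM, lowest in replicate 2.

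Lipid, purine and chemokine receptors had 17 members of 44 (38.6%), against 58.7% of all protein-coding genes. ADGRL1, a latrophilin, was at 43.3 ± 1.13 FPKM, CXCR4, the receptor for CXCL12, at 22.8, 23.8 and 27.3 FPKM, the prostaglandin receptor PTGER2 at 12.96 ± 0.559 FPKM and the purine receptor P2RY11 at 12.4 ± 3.13 FPKM. Cytokine, death and innate receptors had 14 members of 43 (32.6%). CNTFR, the binding chain for ciliary neurotrophic factor, was at 169, 160.3 and 153 FPKM, and its signalling chain IL6ST was lower, at 15.7, 18.6 and 18.7 FPKM. The interferon-gamma receptor chains IFNGR1 and IFNGR2 were at 22.01 ± 0.499 and 29.6 ± 0.785 FPKM. TLR3, TLR4, IFIH1 and TNFRSF1A were under 0.1 FPKM in every control. Of 29 interferon-stimulated genes 6 were members, among them IFI6 at 10.3 ± 0.598 FPKM, and of 19 interferon and chemokine ligands only CCL2 was, at 6.20, 5.23 and 1.67 FPKM.

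Morphogen receptors had 20 members of 35 (57.1%) and axon guidance receptors 15 of 28 listed (53.6%). These shares were close to the 58.7% of all protein-coding genes. ACVR1B, an activin receptor, was at 29.7 ± 2.05 FPKM, the Wnt receptors FZD7 and LRP5 at 26.04 ± 0.417 and 22.5 ± 2.50 FPKM and BMPR1B, a BMP receptor, at 16.00 ± 4.02 FPKM. NOTCH2 was at 6.16, 7.08 and 8.43 FPKM and NOTCH1 at 0.00624, 0.00683 and 0.0141 FPKM, so NOTCH2 was higher in every library. L1CAM, an adhesion molecule of growing axons, was at 76.4, 79.5 and 86.4 FPKM. The netrin receptors UNC5B and UNC5C were at 65.98, 67.8 and 60.5 FPKM and 35.8, 40.7 and 44.3 FPKM, while DCC, another netrin receptor, was under 0.1 FPKM in every control. CNTN1, a contactin, was at 51.3, 54.6 and 84.8 FPKM, highest in replicate 4. Nuclear hormone receptors had 27 members of 48 (56.25%), also close to that share. NR2F6 was at 48.9 ± 7.94 FPKM, the thyroid hormone receptor THRA at 29.4 ± 2.59 FPKM, the orphan receptor ESRRG at 27.98 ± 2.37 FPKM and RXRB at 23.4 ± 1.04 FPKM. The retinoic acid receptors RARG, RARA and RARB were at 17.5 ± 1.10, 15.2 ± 1.17 and 1.94 ± 0.549 FPKM. ESR1, PGR and THRB were under 0.1 FPKM in every control.

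A list of neuroblastoma surface antigens, which also holds enzymes of GD2 synthesis, had 15 members of 17 measured (88.2%). The share over all protein-coding genes was 58.7%. DLK1, a Notch ligand relative, was at 375, 355 and 291 FPKM, CD24, an adhesion glycoprotein, at 304, 303 and 353 FPKM, ALCAM at 62.8 ± 13.7 FPKM and CD276 at 49.7 ± 1.35 FPKM. B4GALNT1, the GD2 synthase, was at 7.08, 6.89 and 5.45 FPKM. For MHC class I, B2M, the light chain, was at 756, 713 and 528 FPKM, lowest in replicate 4. HLA-C was at 24.7, 24.3 and 16.7 FPKM, and HLA-B was listed at 0.213, 0.0936 and 0.0481 FPKM. These are heavy chain genes that are highly alike and polymorphic, so their values are uncertain. None of the 13 MHC class II genes reached 1 FPKM.

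Markers of other cell types were low apart from those of mesenchymal cells. Of 22 fibroblast and mesenchymal markers 13 (59.1%) were members, a share close to the 58.7% of all protein-coding genes. Their summed level was 964, 918 and 690 FPKM in replicates 2, 3 and 4. S100A6, a calcium-binding protein, was at 368, 344 and 238 FPKM and VIM, an intermediate filament gene that neuroblasts also express, at 302, 286 and 193 FPKM. DCN, a matrix proteoglycan, was at 75.6, 74.3 and 51.5 FPKM, and COL6A2, a collagen VI chain, at 40.8, 41.5 and 47.99 FPKM. VIM of this list also stands in the list of neuronal cytoskeleton genes, and THY1 and CD44 in that of neuroblastoma surface antigens. The 13 members of the fibroblast and mesenchymal list had a median of 29.2 FPKM. Of the same list COL1A2, FAP and POSTN were listed at 0 in every control, COL6A3 was under 0.1 FPKM, and COL1A1 was at 0.398, 0.468 and 0.179 FPKM. Of 18 Schwann cell and glial markers 2 were members, PMP22 at 15.5, 14.4 and 21.9 FPKM and SLC1A3 at 2.78, 2.95 and 3.21 FPKM, with SOX10 at 0.281, 0.118 and 0.122 FPKM. The summed level of this list was 21.4, 19.8 and 27.3 FPKM. Haematopoietic markers summed to 3.14 to 3.86 FPKM, epithelial markers to 6.45 to 10.6 FPKM and endothelial markers to 0.550 to 0.807 FPKM. Of 25 haematopoietic markers 2 were members, CD8A at 1.20, 1.16 and 1.10 FPKM and CD14 at 1.44, 1.07 and 0.781 FPKM, and PTPRC, the pan-leukocyte gene, was under 0.1 FPKM. Of 14 liver markers and 12 endothelial markers none was a member, and of 15 muscle markers 2 were, TNNT2 at 2.76 ± 0.248 and NPPA at 1.504 ± 0.384 FPKM.

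Several large families were almost wholly near 0. None of 378 olfactory receptor genes was a member, and 376 were under 0.1 FPKM in every control, against 40.2% of all genes. None of 15 MAGEA-family genes, which are germline antigens, was a member. Of 56 keratin genes 2 were members. Of the HOX clusters, which record position along the body axis, all 11 HOXA and all 10 HOXB genes were listed at 0. Of all 26372 genes measured, 8661 were listed at 0 in every control. By contrast 5 of 9 HOXC and 5 of 9 HOXD genes were members (55.6% each), close to the 58.7% of all protein-coding genes. HOXC4 was at 36.6, 38.05 and 36.7 FPKM, HOXC6 at 22.2, 23.6 and 25.5 FPKM, HOXC8 at 17.2, 15.8 and 10.2 FPKM, HOXC9 at 7.68, 7.19 and 7.69 FPKM and HOXC5 at 7.04, 6.32 and 4.56 FPKM. HOXD8 was at 23.3, 24.96 and 29.4 FPKM, HOXD9 at 19.7, 19.4 and 21.3 FPKM, HOXD4 at 14.9, 19.8 and 22.1 FPKM and HOXD3 at 12.2, 11.2 and 12.5 FPKM, with HOXD10 lower at 1.20, 1.67 and 1.84 FPKM. No HOXC or HOXD gene numbered above 10 was a member, and HOXC10 was at 0.0660, 0.217 and 0.112 FPKM. HOXC4, HOXC5 and HOXC6 lie within overlapping spans, HOXC8 and HOXC9 within the span of HOXC6, and HOXD4 within that of HOXD3. The split between such neighbours is uncertain.

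**Figure D3:**
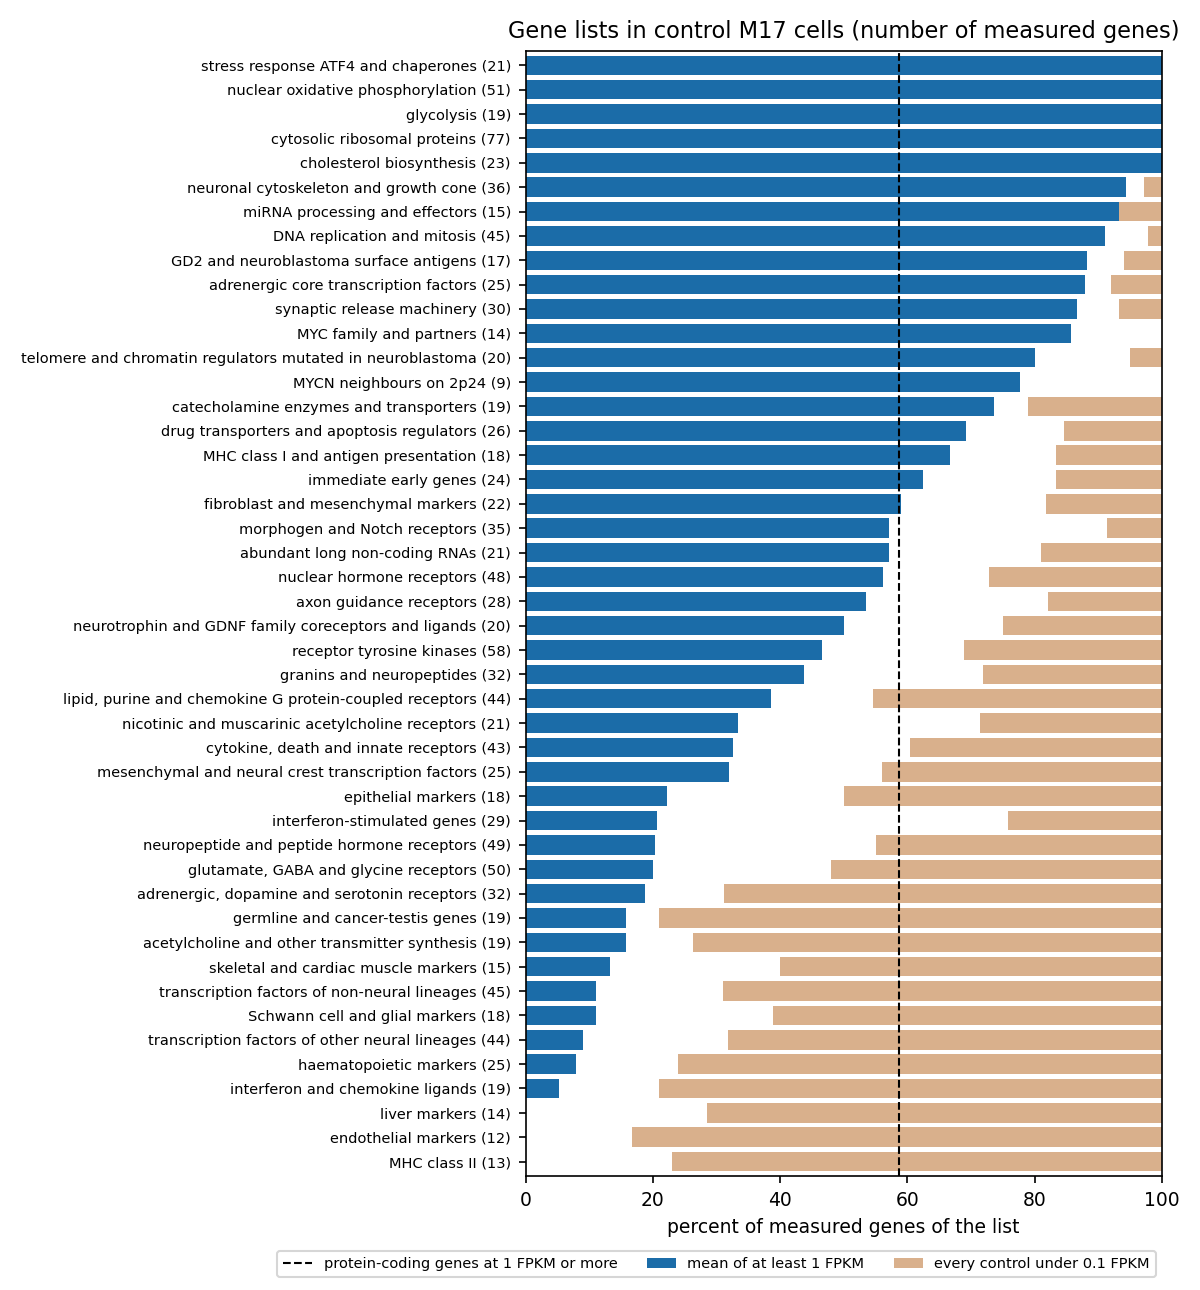
Percent of the measured genes of each list (number in brackets) that averaged 1 FPKM or more over the 3 controls (blue, from the left) and under 0.1 FPKM in every control (tan, from the right), with the share of all protein-coding genes at 1 FPKM or more, 58.7%, dashed. Adrenergic core factors stand at 88% and mesenchymal and neural crest factors at 32%.

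Genes of proliferation and metabolism were members almost throughout. Of 45 replication and mitosis genes 41 (91.1%) were members, against 58.7% of all protein-coding genes. CCND1, which drives entry into S phase, was at 258, 257 and 248 FPKM and its partner CDK4 at 145, 134 and 128 FPKM, whereas CCND2 was listed at 0 in every control. PCNA, the replication clamp, was at 245, 241 and 217 FPKM, TOP2A, the mitotic topoisomerase, at 129, 133 and 156 FPKM and MKI67 at 64.6, 74.3 and 98.5 FPKM. CDKN1A, a p53 target and inhibitor of CDKs, was at 0.945, 1.27 and 0.633 FPKM. TERT, the catalytic subunit of telomerase, was at 3.09, 2.86 and 2.79 FPKM. LIN28B, which blocks let-7 maturation, was at 9.88, 11.8 and 11.9 FPKM, and its relative LIN28A was under 0.1 FPKM in every control. MCL1 and BAX, which block and execute apoptosis, were at 102 ± 7.59 and 89.7 ± 12.1 FPKM. BCL2 was at 8.42 ± 1.12 FPKM. CASP8, the initiator caspase of death receptors, was at 0.351, 0.285 and 0.519 FPKM, and ABCB1, the multidrug pump, was under 0.1 FPKM.

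All 19 glycolysis genes, all 23 cholesterol synthesis genes and all 51 nuclear oxidative phosphorylation genes were members. LDHB, the lactate dehydrogenase subunit favoured by oxidative tissues, was at 988, 929 and 855 FPKM, and LDHA, the subunit of glycolytic tissues, at 7.13, 7.10 and 6.99 FPKM. LDHB was 139, 131 and 122 times LDHA in the 3 libraries. The pairs of relatives set side by side for Notch, HLA, cyclin D, LIN28 and lactate dehydrogenase were chosen after their values were seen. COX7C, a subunit of cytochrome oxidase, was at 1509, 1479 and 1343 FPKM and FDPS, of isoprenoid synthesis, at 247, 233 and 199 FPKM. HSP90AB1, a chaperone, was at 1689, 1621 and 1707 FPKM and ATF4, of the stress response, at 438, 402 and 426 FPKM. Of the immediate early genes JUND, JUNB and JUN were at 81.7 ± 1.66, 40.1 ± 7.16 and 37.9 ± 7.97 FPKM.

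Among the 21 measured long non-coding RNAs of the list, host genes of small nucleolar RNAs were the most abundant. GAS5 was at 994, 869 and 1149.9 FPKM, SNHG5 at 1033, 940.3 and 958 FPKM, SNHG8 at 949.8, 853 and 828 FPKM and SNHG6 at 519.5, 512 and 540.4 FPKM. MALAT1, a nuclear RNA, was at 294, 277 and 181 FPKM and MEG3, an imprinted RNA, at 197, 197 and 238 FPKM. MEG3 and its imprinted neighbour DLK1 were both abundant, while H19 was under 0.1 FPKM in every control and IGF2 was at 31.3, 31.6 and 25.2 FPKM. MIAT, also called GOMAFU, was at 5.38, 5.96 and 8.57 FPKM. It ranked 8139th, and replicate 4 was the highest library. Among short RNA genes, RN7SL2 was at 687, 469 and 785 FPKM, RN7SL1 at 463, 326 and 624 FPKM and SNORD3A at 203, 76.98 and 447 FPKM. The last was lowest in replicate 3 and highest in replicate 4, and its mean of 242 FPKM became 139.8 FPKM without replicate 4.

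The spread between the 3 controls was widest at low levels. The coefficient of variation, the SD over the mean, had a median of 8.54% over the 12042 genes. With 1 control left out, and so over 2 libraries, it was 7.80% without replicate 2, 9.32% without replicate 3 and 4.56% without replicate 4. In classes of mean FPKM, over all 3 libraries, it was 16.8% from 1 to 3, 9.87% from 3 to 10 and 6.66 to 6.90% in every class above. The 90th percentile was 40.4% in the lowest class and 13.7% from 100 to 300 FPKM. A pair of libraries differed by at least 2-fold, on the log2(FPKM + 1) scale, for 21 genes between replicates 2 and 3, 101 between 2 and 4 and 79 between 3 and 4. Correlations across genes, whose points are genes of the same libraries, were r = 0.996, 0.987 and 0.989 in that order.

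Among the 6658 genes of at least 10 FPKM that are not small RNA genes, 25 ranged by at least 1 on the log2 scale over the controls. Replicate 4 was the highest library for 9 of these and the lowest for 16. GNG8, a G protein subunit, had the widest range at 35.4, 12.3 and 8.49 FPKM, with replicate 2 apart from the others. AKR1C3, a ketosteroid reductase, was at 27.6, 24.3 and 7.64 FPKM and NQO1, a quinone reductase, at 29.99, 23.4 and 9.79 FPKM, both lowest in replicate 4. STRA6, the retinol uptake receptor, was at 79.3, 73.6 and 29.99 FPKM, KCNK1, a potassium channel, at 42.6, 39.5 and 14.8 FPKM, KIAA0408 at 19.03, 14.1 and 6.75 FPKM, C4orf48 at 82.1, 120.5 and 49.8 FPKM, GPR50 at 27.7, 27.2 and 11.4 FPKM and IER3, an early response gene, at 28.9, 24.5 and 11.96 FPKM. These were lowest in replicate 4, as was VGF. BMP4, a BMP ligand, went the other way at 10.2, 10.1 and 25.3 FPKM, with a mean of 15.2 FPKM that was 10.1 FPKM without replicate 4. H3F3A was at 66.00, 40.9 and 19.4 FPKM, and its processed copy H3F3AP4 was at 743, 713 and 758 FPKM, so fragments of this histone gene may be assigned to either. The genes with the smallest variation included RANBP6, an importin relative, at 22.4, 22.4 and 22.4 FPKM, HBS1L, of ribosome rescue, at 13.7, 13.7 and 13.7 FPKM, HERC4, a ubiquitin ligase, at 11.6, 11.6 and 11.6 FPKM and HNRNPH3, a splicing factor, at 141, 141 and 141 FPKM. With 3 libraries such near-equality is a description of these values.

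Differences between libraries were ordered by transcript length. In log2(FPKM + 1), replicate 4 minus the mean of 2 and 3 had a median of -0.12 in the quintile of shortest transcripts, then -0.07, -0.03 and 0.03, and 0.13 in the quintile of longest. Replicate 3 minus replicate 2 gave -0.07 in the shortest and 0.08 in the longest quintile. By GC content, replicate 4 minus the mean of 2 and 3 had medians from 0.05 in the lowest to -0.08 in the highest quintile. The part of length and GC in any gene's difference was not tested.

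**Figure D4:**
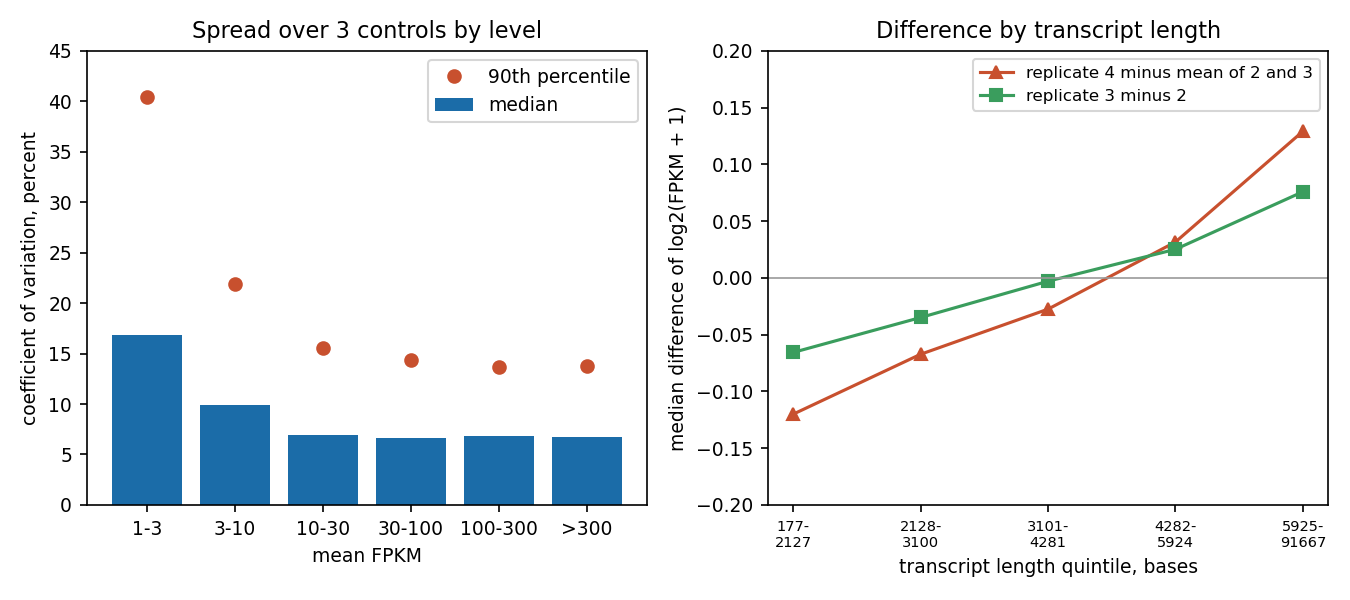
Left, the median (bars) and 90th percentile (points) of the coefficient of variation over the 3 controls, in percent, by class of mean FPKM. Right, the median difference of log2(FPKM + 1) by quintile of transcript length in bases, taken from the longest annotated transcript of each gene. Triangles are replicate 4 minus the mean of 2 and 3 (-0.12 to 0.13) and squares replicate 3 minus 2 (-0.07 to 0.08).

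Gene groups differed in how replicate 4 lay against the 3-library mean. Over all members its median deviation was -0.01 in log2(FPKM + 1), and the median length of the longest annotated transcript was 3666 bases. Replicate 4 was the highest library for 4772 and the lowest for 5244 of the 12042 members. Adrenergic core factors had a median deviation of 0.18, with replicate 4 highest for 16 of 22, at a median length of 3847 bases. Receptors for glutamate, GABA and glycine had 0.23 (highest for 8 of 10, 5397 bases) and axon guidance receptors 0.17 (highest for 13 of 15, 7094 bases). In the other direction, oxidative phosphorylation genes had -0.17, with replicate 4 lowest for 48 of 51, at 1366 bases. Stress response genes had -0.20 (lowest for 19 of 21, 2483 bases), granins and neuropeptides -0.19 (lowest for 10 of 14, 1824 bases) and fibroblast and mesenchymal markers -0.18 (lowest for 10 of 13, 3298 bases). Ribosomal protein genes, also short by this measure at 1857 bases, had 0.04. Among groups with short transcripts, replication-dependent histone genes had 0.27 (highest for 20 of 27, 895 bases) and the HOXD cluster 0.15 (highest for 5 of 5, 1917 bases). The part of transcript length in these group deviations was not tested.

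**Figure D5:**
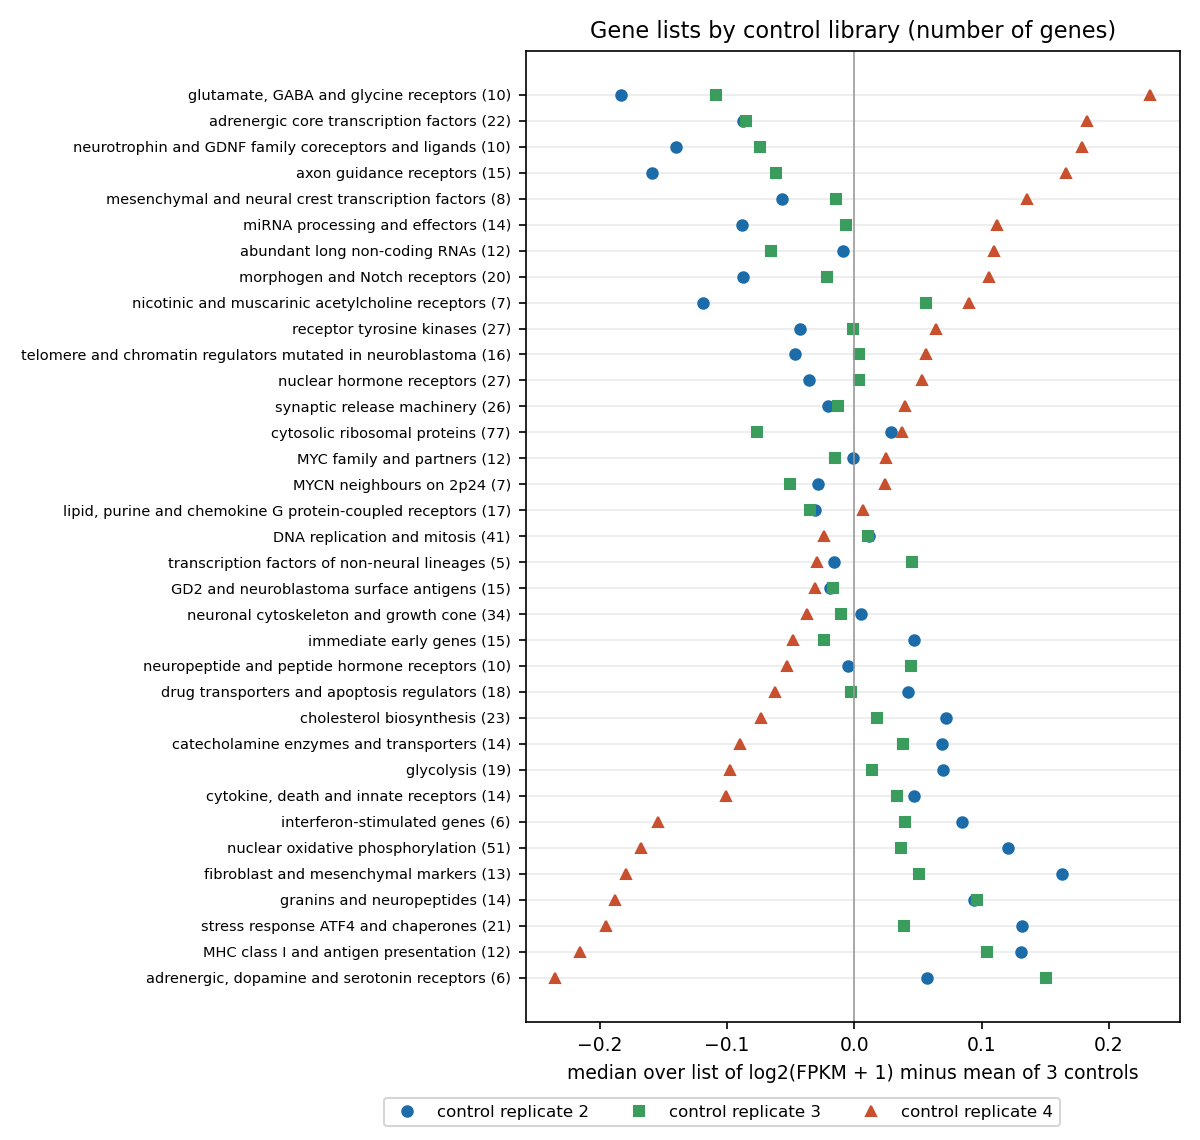
Median over the members of each list (number of genes in brackets) of log2(FPKM + 1) in a library minus the mean of the 3 controls, for replicates 2 (circles), 3 (squares) and 4 (triangles). Replicate 4 lies at 0.18 for adrenergic core factors and at -0.17 for oxidative phosphorylation genes, on the opposite side from replicates 2 and 3.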

How the data were processed

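RNA-seq of 3 control BE(2)-M17 libraries was described on its own, with no groups compared and no test. The deposited values are FPKM, made by the authors with TopHat2 and Cuffdiff on hg38 per the submitters' processing notes. The tool versions, annotation, filters and strand setting were not stated in the labels or notes used here. Where FPKM is scaled by the mapped total, abundant transcripts lower all others. The depth in reads is unknown. The table held 0 columns of no listed sample.

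Genes that averaged 1 FPKM or more were kept. Some genes are not reported here by name. Differences used log2(FPKM + 1). The members, 46 gene lists (1315 entries, 1307 matched by symbol, 8 unmatched) and 32 symbol families were chosen with earlier results of these data known. Named are the 25 most abundant genes, the adrenergic, MYC and catecholamine lists, up to 4 of each other list, the 12 widest and the 12 least variable genes of at least 10 FPKM, and family leaders. Genes under 0.1 FPKM in every control are named from the lists. Other named genes were chosen after their values were seen. GENCODE 29 (GRCh38, as hg38) matched 90.2% of symbols in the table and 94.8% of members. RefSeq promoters (GRCh38.p14) were searched over 250 bases. They matched 67.3% of genes, so a planned comparison of promoters by level is void. Python 3.11.15, numpy 2.4.6, pandas 2.3.3 and matplotlib 3.10.9 were used, and the statistics were tested on simulated data. Alternatives were scaling, filters, pseudocounts, gene classes left out and each control left out.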

Additional observations from a re-analysis of the deposited data

How the results depend on the processing

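The count of members was 9004 to 12966 over the scalings, filters, gene classes and omitted controls tried, within 1.5 times the 12042 reported. The count of genes under 0.1 FPKM in every control was 8296 to 12219. The 50 most abundant genes held 29.6% and the 500 most abundant 61.5% of the summed FPKM. The median coefficient of variation was 12.5% with no filter on low values and 4.56 to 9.32% with 1 control left out, lowest without control replicate 4. The median absolute log2 difference between libraries was 0.12 to 0.15 under other pseudocounts, scaling and filter. Without replicate 4 the mean of 5 named genes averaging 1 FPKM or more moved by over 1.5 times, SNORD3A, BMP4, DACH1, ALK and KIT. Of 184 list counts recomputed after seeing the data, 1 moved by over 1.5 times, the haematopoietic list from 2 to 1 without replicate 2. All 35 list deviations of replicate 4 kept their direction under upper-quartile scaling, also added after seeing the data. The scaling factors were 0.995, 0.991 and 1.014 for replicates 2, 3 and 4, and so small a change could not reverse the larger deviations. No paired analysis was possible because only 1 group was described. Depth in reads is unknown, so no limit of detection was set.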

Other observations

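The cells transcribed the 3 protocadherin clusters, whose members give neurons distinct surface identities, unevenly. Of 15 alpha cluster genes 5 (33.3%) averaged 1 FPKM or more, against 58.7% of all protein-coding genes. Of 16 beta cluster genes 8 (50%) did, and of 23 gamma cluster genes 3 (13.0%). PCDHGC3, a gamma gene, was the highest at 55.2 ± 2.32 FPKM, with PCDHB4 at 7.47 ± 0.512 and PCDHA10 at 5.60 ± 1.32 FPKM (SD, n = 3). The genes of a cluster share 3′ exons or closely similar sequence, so the split among them is uncertain. The alpha and beta clusters had their highest summed level in replicate 4, at 21.6 and 49.3 FPKM, against 16.9 and 37.7 FPKM in replicate 2 and 17.5 and 39.9 FPKM in replicate 3.

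Of 95 potassium channel genes 28 (29.5%) were members, against 58.7% of all protein-coding genes. Of 26 calcium channel genes 9 (34.6%) were members, led by CACNG4 at 138 ± 11.7 FPKM, and of 14 sodium channel genes 3 (21.4%) were, led by SCN3B at 8.35 ± 0.937 FPKM. Collagens had 8 members of 44 (18.2%), led by COL4A2 at 61.7 ± 5.97 FPKM, and zinc finger genes with ZNF symbols had 403 of 529 (76.2%) with a median of 4.81 FPKM over those members. Replication-dependent histone genes, whose transcripts mostly lack a poly(A) tail, summed to 221, 246 and 299 FPKM in replicates 2, 3 and 4.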
